A study of Mus musculus with 8 samples.

Results

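Cycling T cells of the mouse meninges were described here from 2 single-cell samples of sorted meningeal CD4+ T cells. Cells were chosen by measured values: a cell was counted as cycling when at least 3 of 7 proliferation genes (Mki67, Top2a, Birc5, Ube2c, Cenpf, Pclaf and Cdk1) had at least 1 UMI, a unique molecular identifier that stands for 1 captured transcript. By this rule 142 of 6227 T cells were cycling. Replicate 1 held 45 cycling cells of 1876 T cells, and replicate 2 held 97 of 4351. The mice were Foxp3-GFP in replicate 1 and B6.WT in replicate 2, neither with a treatment, so genotype and replicate cannot be told apart and were not compared. The labels give no age and no number of mice for these samples. Cells had been sorted as CD45+ CD3+ CD4+ after perfusion, and each library also held cells of other hashtag-marked samples, which are not used here. T cells were taken as barcodes that carried the sample's hashtag antibody (10 counts or more, and 2 times the next hashtag or more), had at least 500 detected genes, under 10% mitochondrial UMIs and at least 1 UMI of Cd3d, Cd3e or Cd3g.

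A T cell that divides first duplicates its DNA in S phase and then separates its chromosomes in G2 and M phase. The S phase programme includes DNA helicase and polymerase subunits and the enzymes that make deoxynucleotides. The G2 and M programme includes kinesins, centromere proteins and cyclins that drive mitosis. Resting T cells lack most of these transcripts and hold quiescence genes such as Il7r, Klf2 and Btg1. The meninges are the membranes around the brain, and their CD4+ T cells include Foxp3+ regulatory T cells (Treg cells), T helper 1 (Th1) cells that make interferon gamma, and invariant natural killer T (iNKT) cells, whose alpha chain joins the TRAV11 and TRAJ18 segments.

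The libraries of replicates 1 and 2 held 60890248 and 68830571 UMIs over 13402 and 33575 barcodes, and 6 barcodes were shared between the T cells of both libraries. Cycling cells were deeper than other T cells. Their median was 10027 UMIs against 3107 in replicate 1 and 5104 against 1726 in replicate 2. Detection of any gene therefore moves with cycling, and shares of cells are given below also against deep other T cells (those with at least the lower quartile of the cycling cells' UMIs, 7308 and 3506) and after each cell was thinned to 1000 UMIs. Signs of 2 cells in 1 droplet also moved with cycling in replicate 1. There, 9 of 45 cycling cells had 2 or more TRB chains against 10.2% of other T cells, and 26.7% of cycling cells had a hashtag margin under 5 against 14.6%. In replicate 2 the values were 10.3% against 8.58% and 24.7% against 23.1%. At least 10 UMIs of marker or immunoglobulin genes of other cell types were found in 11 of the 45 cycling cells of replicate 1, which held 32.8% of the cycling UMIs, and in 6 of the 97 of replicate 2, which held 8.25%. In other T cells these shares were 5.24% and 1.86% of cells. The cutoff is a fixed number of UMIs, which deeper cells reach more readily, and the cycling cells were deeper. The 2 richest cells, both in replicate 1, held 10666 and 12374 immunoglobulin UMIs. Levels are given in CPM, the UMIs of a gene or list summed over the cells of a group and scaled to a total of 1000000 UMIs. The plasma cell markers were at 3344 and 1.70 CPM in the cycling cells of replicates 1 and 2, against 1509 and 133 in other T cells, and the monocyte and macrophage markers at 558 and 13.6 against 217 and 187. The dendritic cell markers were at 72.4 and 5.11 against 3.60 and 7.12, and the natural killer cell markers at 236 and 30.6 against 93.5 and 121. Other lists were lower in cycling cells in at least 1 replicate. The B cell markers were at 234 and 340 against 251 and 490, and the fibroblast markers at 52.2 and 15.3 against 734 and 4.13. The neutrophil markers were at 3.37 and 5.11 against 2.01 and 114. Of 10 monocyte and macrophage markers, 9 and 3 had a UMI, with Fcgr1 at 0 in both, and of 8 B cell markers, 3 and 7 had a UMI, with Pax5 at 0 in both. All 5 red cell markers were at 0. The part of these cells in the results was not tested unless a value without them is given.

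The label was checked against the cells' own transcripts. All 10 markers of CD4+ and alpha-beta T cells had UMIs in the cycling cells of both replicates, at 3155 and 4401 CPM against 5024 and 5543 in other T cells. A Cd4 UMI was found in 68.9% and 46.4% of cycling cells. Of the CD8 genes, 6 UMIs lay in the cycling cells of replicate 1 and 2 in those of replicate 2. Of 7 thymocyte markers, 3 had a UMI in the cycling cells of replicate 1 (7 UMIs in all) and 2 in those of replicate 2 (3 UMIs), with Rag2, Ptcra and Arpp21 at 0 in both.

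The 7 rule genes chose the cells, and their values are a description without a test. Mki67, a protein of the mitotic chromosome surface, was at 253 CPM in the cycling cells of replicate 1 and 621 in replicate 2, against 13.4 and 19.4 in other T cells. Top2a, the topoisomerase that untangles chromosomes, was at 339 and 650 against 18.6 and 16.1. Birc5 (survivin, a subunit of the chromosomal passenger complex) was at 345 and 630 against 2.73 and 6.20. Each of these 3 genes was higher in replicate 2 than in replicate 1 among cycling cells, and the cycling and other sums did not overlap. Ube2c, which ubiquitinates mitotic cyclins, was at 409 and 871 against 4.61 and 8.27, and Cenpf, a kinetochore protein, at 165 and 361 against 2.30 and 2.98. Pclaf, which binds the replication clamp, had nearly the same level in both replicates, 568 and 589 against 4.17 and 9.53. Cdk1, the kinase that starts mitosis, was at 148 and 245 against 4.17 and 4.59. Just inside the threshold, 9 and 22 cells had exactly 3 of the 7 genes, with median UMIs of 8047 and 4391. Just outside it, 33 and 51 cells had exactly 2, with median UMIs of 4075 and 2939. All 7 genes were present in 10 and 28 cells. The cycling share of T cells was 2.40% (exact 95% interval 1.76 to 3.20) in replicate 1 and 2.23% (1.81 to 2.71) in replicate 2, or 2.31% ± 0.120 (SD, n = 2). These and the other intervals cover counting error only.

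**Figure D1:**
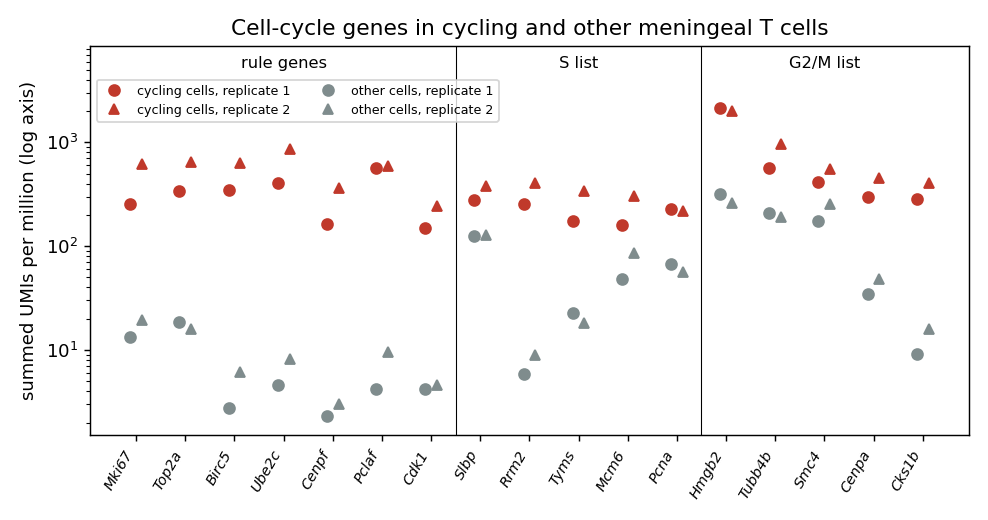
Level in CPM (log axis) of the 7 rule genes and of the 5 genes with the most UMIs in cycling cells from the S and the G2/M list, for cycling (red) and other (grey) T cells of replicate 1 (circles) and replicate 2 (triangles). Every red point lies above the grey points of its gene, with the narrowest gaps at Smc4 and Mcm6.

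Transcripts of both phases were present in the cycling cells. These lists follow the rule genes closely, so they are described without a test. The S phase list was at 3827 and 5327 CPM in cycling cells against 885 and 1123 in other T cells, and the G2/M list at 6871 and 9714 against 1298 and 1409. The S list was led by Slbp (histone mRNA binding), at 281 and 383 CPM against 125 and 127, and Rrm2 (ribonucleotide reductase), at 254 and 408 against 5.90 and 8.95. Tyms, the thymidylate synthase, was at 174 and 340 against 22.6 and 18.4. The helicase subunit Mcm6 was at 158 and 303 against 48.6 and 86.3, and the replication clamp Pcna at 227 and 220 against 67.8 and 56.0. In the G2/M list the chromatin protein Hmgb2 was the highest, at 2126 and 2000 against 317 and 260, followed by the tubulin Tubb4b at 571 and 963 against 210 and 191. The condensin subunit Smc4 was at 419 and 558 against 177 and 254. The centromere histone Cenpa was at 300 and 449 against 34.3 and 48.6, and the CDK subunit Cks1b at 288 and 403 against 9.21 and 15.8. Rrm2 and Cks1b thus had low levels in other T cells, while Slbp, Mcm6, Hmgb2 and Smc4 were well detected there too.

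Within single cells, 28 of 45 cycling cells in replicate 1 and 66 of 97 in replicate 2 held more G2/M than S list UMIs, and 16 and 29 held more S list UMIs. The median cell had 38 S and 64 G2/M list UMIs in replicate 1 and 30 S and 45 G2/M list UMIs in replicate 2. G2/M list UMIs were at least 5 times the S list UMIs in 14 and 20 cells, and the opposite was seen in 0 and 1 cells. The lists differ in size and in transcript level, so the excess is not a count of cells per phase. Cyclins of these phases were higher in cycling cells. Ccna2 (S to G2) was at 179 and 385 CPM against 2.16 and 3.79, Ccnb2 (mitosis) at 263 and 277 against 1.58 and 4.71, and Ccne1 (G1 to S) at 48.9 and 56.2 against 3.31 and 3.90. Ccnd2, a D cyclin of the G1 phase, had lower levels in cycling cells, 322 and 213 against 575 and 398, and Ccnd3 overlapped between the groups, at 295 and 444 against 329 and 391.

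**Figure D2:**
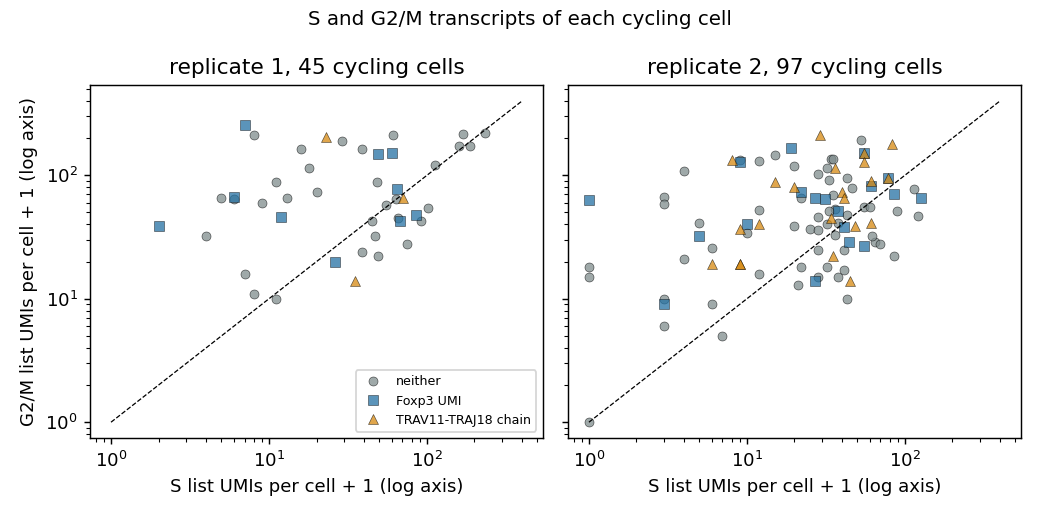
Each point is 1 cycling cell, placed by its S list UMIs and its G2/M list UMIs, both plus 1 on log axes, with replicate 1 on the left and replicate 2 on the right, and the dashed line marks equal numbers. Cells with a Foxp3 UMI (blue squares) and cells with a TRAV11-TRAJ18 chain (orange triangles) lie on both sides of the line among the other cells (grey), and 28 of 45 and 66 of 97 cells lie above it.

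All 3 named states were found among cycling cells. The Foxp3 share was higher in cycling than in all other T cells in both replicates, and lower in both replicates in each of the 2 comparisons matched for depth. Foxp3, the transcription factor of Treg cells, had a UMI in 10 of 45 cycling cells of replicate 1 (22.2%, exact 95% interval 11.2 to 37.1) and, in replicate 2, in 19 of 97 cycling cells (19.6%, 12.2 to 28.9). Among other T cells it was found in 201 of 1831 (9.58 to 12.5) and 686 of 4254 (16.1%, 15.0 to 17.3), a difference of 7.35 ± 5.50 percentage points (SD, n = 2). Deep other T cells, with median UMIs of 9260.5 and 4315.5, reached 31.1% (23.3 to 39.7) and 30.4%, above both cycling shares. An alpha chain was found in 86 of 132 and 297 of 428 of these deep cells, against 41 of 45 and 76 of 97 cycling cells. Signs of 2 cells in 1 droplet were not counted among the deep cells, and their part in this comparison was not tested. After thinning to 1000 UMIs, 0 of 44 cycling cells (which allows a share of cells with a UMI of up to 6.82%, and does not limit the cells that express Foxp3) and 3 of 97 (3.09%) had a Foxp3 UMI, against 3.92% and 9.83% of other T cells. The differences were 11.2 and 3.46 percentage points unmatched, -8.84 and -10.8 against deep cells and -3.92 and -6.74 after thinning. As a background, 4.44% (1.65 to 9.42, median 3688 UMIs) and 6.69% (4.65 to 9.27, median 1985 UMIs) of iNKT cells outside the cycle, which as a class lack Foxp3, had a Foxp3 UMI. Among iNKT cells that cycled, 0 of 3 and 2 of 22 (9.09%, 1.12 to 29.2, median 5791 UMIs) had one, and the latter interval holds the cycling share of replicate 2. Tagged cells without a CD3 UMI, at median depths of 1639 and 1114 UMIs, had one in 4.55% (1.25 to 11.2) and 13.9% (7.16 to 23.6), and in replicate 2 this interval holds the cycling share. These cells came from the same CD3+ CD4+ sort and may be T cells whose CD3 transcripts were missed at this depth. They therefore do not give a rate of false Foxp3 UMIs. Without the cells that held other cell types' transcripts, the cycling shares were 14.7% and 18.7%. Seen from the other side, 4.74% and 2.70% of T cells with a Foxp3 UMI were cycling, against 2.10% and 2.14% of those without one. Among deep cells these values were 19.6% and 11.6% against 20.9% and 15.8%.

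Th1 genes were the most widespread of the states. At least 2 of Tbx21, Cxcr3, Ifng and Cxcr6 had a UMI in 30 of 45 cycling cells (66.7%, 51.1 to 80.0) and in 57 of 97 (58.8%, 48.3 to 68.7). In other T cells the shares were 48.4% and 34.5%, a difference of 21.2 ± 4.27 percentage points (SD, n = 2). Deep other T cells had 59.1% (50.2 to 67.6) and 57.9% (53.1 to 62.7), close to the cycling shares and inside their intervals. After thinning, 11.4% and 13.4% of cycling cells met the criterion against 19.3% and 18.5% of other T cells. The Th1 difference therefore also moved with depth, and its direction turned after thinning. The tagged cells without a CD3 UMI, which may hold T cells too, met the criterion in 4 of 88 and 3 of 79.

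The TRAV11-TRAJ18 chain comes from the receptor library, whose sequences the rule did not use. Of cycling cells with an alpha chain, 3 of 41 in replicate 1 (7.32%, 1.54 to 19.9) and 22 of 76 in replicate 2 (28.9%, 19.1 to 40.5) carried it, against 9.42% (7.96 to 11.1) and 19.1% (17.6 to 20.6) of other T cells. The replicates pointed in opposite directions, with only 3 such cycling cells in replicate 1, and the difference was 3.89 ± 8.47 percentage points (SD, n = 2). Deep other T cells had 16.3% and 20.9%. The differences of replicate 1 were -2.10 against all and -8.96 against deep other T cells, and those of replicate 2 were 9.88 and 8.07. An exact two-sided permutation test of 2 replicates against 2 cannot give a p below 0.333, and no test was run on the shares of the 3 states.

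The states overlapped in part. In replicate 1, 5 cycling cells had both a Foxp3 UMI and at least 2 Th1 genes, 25 had the Th1 genes without Foxp3, and 10 had none of the 3 states. In replicate 2 these numbers were 8, 49 and 27. All 3 iNKT cells that cycled in replicate 1 and 20 of the 22 in replicate 2 met the Th1 criterion. Follicular helper genes (at least 2 of Bcl6, Cxcr5, Pdcd1, Sostdc1 and Il21) were found in 5 of 45 and 6 of 97 cycling cells.

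**Figure D3:**
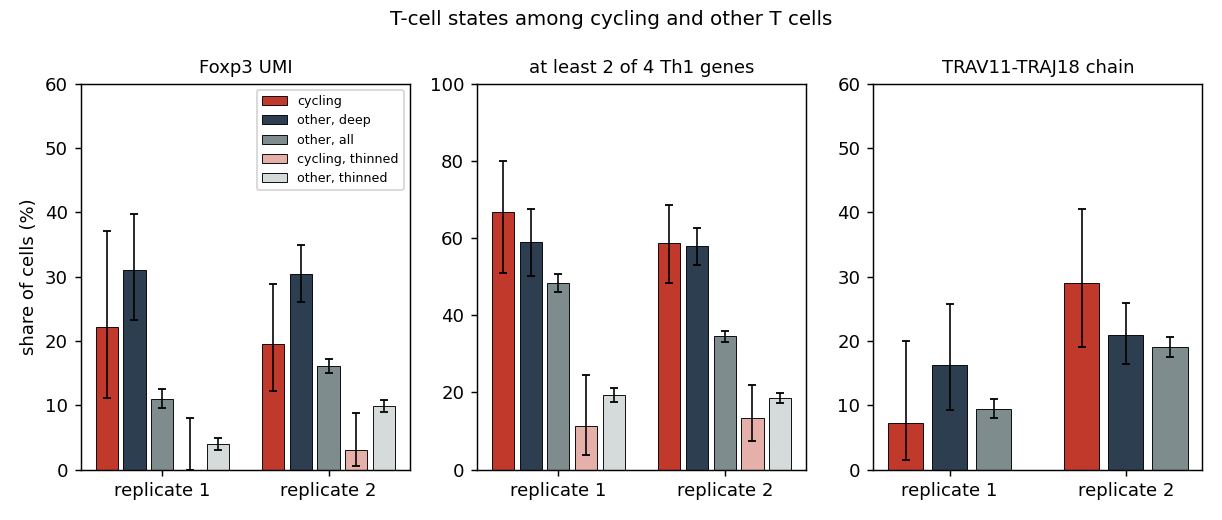
Share of cells (%) with a Foxp3 UMI (left), with at least 2 of 4 Th1 genes (middle) and with a TRAV11-TRAJ18 chain among cells with an alpha chain (right), per replicate. Red bars are cycling cells, dark bars deep other T cells, grey bars all other T cells, and pale bars cells thinned to 1000 UMIs (not shown for the receptor chain), with exact 95% intervals. For Foxp3 the red bars stand above the grey and below the dark bars in both replicates.

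Levels within the cycling cells were then read by state. Cycling cells with a Foxp3 UMI held the Treg list without Foxp3 (17 genes) at 4782 and 3309 CPM, while cycling cells without one held it at 1381 and 1345. The IL-2 receptor alpha chain Il2ra was at 115 and 133 against 13.7 and 41.2 in those 2 groups, the TNF receptor family member Tnfrsf4 (OX40) at 993 and 525 against 117 and 206, and Ikzf2 (Helios) at 344 and 286 against 91.6 and 135. The checkpoint receptor Ctla4 was at 815 and 206 against 151 and 59.5. Both values of the Foxp3 group lay above both values of the other group in 14 of the 17 genes, Il10 and Areg overlapped, and Nrp1 lay below. The share of all genes that separate in this way was not counted, so the number has no background. In replicate 1, 5 of the 10 cycling cells with a Foxp3 UMI held other cell types' transcripts, and these cells had 67.4% of the UMIs of the 10. Without such cells the list was at 5369 and 3315 CPM (5 and 17 cells) against 1521 and 1359 (29 and 74 cells), and 13 of the 17 genes lay above. The cells were split by a Foxp3 UMI, so these levels are a description. Outside the cycle, cells with a Foxp3 UMI held the list at 6764 and 4084. The Th1 list was lower in cycling cells with a Foxp3 UMI, at 1083 and 1422, than in those without, at 2052 and 3688. Without cells that held other cell types' transcripts it was at 1640 and 1617 against 2084 and 3800.

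In replicate 2, the 22 iNKT cells that cycled held Zbtb16 (PLZF, the transcription factor of the iNKT lineage) at 103 CPM, while the 54 cycling cells with another alpha chain had 0 UMIs of it, which with 3 counts as the limit allows up to 9.88 CPM. Outside the cycle the levels were 54.0 and 7.11. The 3 iNKT cells that cycled in replicate 1 had no Zbtb16 UMI. The Th1 list was at 5348 in the iNKT cells that cycled in replicate 2 against 2296 in the cycling cells with another alpha chain, and at 4469 against 1668 in replicate 1. Cxcr6, a chemokine receptor of tissue-resident T cells, was at 519 against 155 in replicate 2 and at 382 against 140 in replicate 1. In each split the values of 1 replicate come from few cells, and no test was run.

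To compare levels of other genes, UMIs were summed over cycling and over other T cells of each replicate, and the 4 sums were tested across 11511 genes without the 7 rule genes. With edgeR's quasi-likelihood test and Benjamini-Hochberg adjustment, 100 genes passed an adjusted p of 0.05 (0.869% of those tested), 97 higher (0.843%) and 3 lower (0.0261%) in cycling cells, and 1483 had an unadjusted p under 0.05. The cycling and other sums of a replicate share their library and mice. With the replicate as a block, 1718 genes passed (14.9%), 995 higher (8.64%) and 723 lower (6.28%). All 100 genes were among them, and 32 of the 100 belong to the S, G2/M and cyclin lists. The other 68 hold further cell-cycle genes, such as Knl1, Spc24 and Foxm1. Calls outside the lists are therefore not independent of the rule that chose the cells. Values below are from the fit without the block unless it is named. The p-values with the block rest largely on dispersion shared across genes. List counts below were not tested against the shares of all genes given here. Against deep other T cells 0 genes passed without the block, where 665 had an unadjusted p under 0.05, and 447 passed with it (5.16%), 335 higher (3.87%) and 112 lower (1.29%). Without cells that held other cell types' transcripts 1749 of 10846 genes passed with the block (16.1%), 997 higher (9.19%) and 752 lower (6.93%).

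The 10 genes named here rose most among the called genes outside the cell-cycle lists with a mean log2 level of at least 5. Most serve replication or mitosis and so follow the rule genes as the lists do. Their p-values describe the chosen cells and are no independent support. Stmn1 (stathmin, which destabilises microtubules) was at 497 and 429 CPM in cycling cells against 14.4 and 10.2, a log2 fold change of 5.22 (SE 0.34, adjusted p = 0.0394). Asf1b, a histone chaperone, was at 148 and 255 against 5.90 and 9.87 (log2 fold change 4.67). Racgap1 (cytokinesis) rose by 3.35, Smc2 (condensin) by 3.32 and Tuba1b (tubulin) by 2.71 on the log2 scale. The DNA ligase Lig1 rose by 2.98, the replication factor subunit Rfc5 by 2.61 and the nuclear envelope gene Nrm by 2.78. The histone genes H2ac8 and H2ax rose by 4.24 and 3.05, and H2ac8 is a member of a family of near-identical genes whose reads can be split between copies. In all of these the cycling sums lay above the other sums in both replicates.

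Of 16 tested genes of nucleotide synthesis, 2 rose without the block and 12 with it, none fell, and the median log2 fold change was 1.13 against -0.09 over all genes tested. Tk1, the thymidine kinase that salvages thymidine, was at 165 and 228 CPM against 2.30 and 4.48, a log2 fold change of 5.84 (SE 0.41, adjusted p = 0.0394). Dut, which removes dUTP, was at 327 and 519 against 68.4 and 84.1 (2.47, adjusted p = 0.0579, and 1.8e-13 with the block). All 16 genes had cycling sums above the other sums, and how many of all genes did so was not counted. Enzymes that make deoxynucleotides belong to the S phase programme, so their rise also follows the choice of the cells. Against deep other T cells 5 of 16 rose with the block.

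Growth genes showed smaller differences. In the list of Myc targets and ribosome biogenesis, 1 of 17 genes rose without the block and 12 with it, with a median of 0.71. Ran, the GTPase of nuclear transport and spindle assembly, was at 985 and 1101 CPM against 314 and 330, a log2 fold change of 1.69 (SE 0.18, adjusted p = 0.048). The mitochondrial chaperone Hspd1 had 366 and 329 against 144 and 162 (1.18, adjusted p = 0.114), and the ribonucleoprotein Nhp2 185 and 187 against 78.0 and 99.1 (1.08, adjusted p = 0.150). Myc itself had 32.0 and 56.2 against 32.4 and 56.9 (-0.01, adjusted p = 0.998). Of 14 proteasome subunits 0 passed without the block and 11 rose with it (median 0.59), among them Psma6 (0.69, SE 0.18), Psmb2 (0.70, SE 0.19) and Psma2 (0.59, SE 0.18). Of 15 glycolysis genes 0 passed without the block and 6 rose with it (median 0.36). Tpi1, the triosephosphate isomerase, had 310 and 334 against 117 and 104 (1.53, adjusted p = 0.0787, and 1.8e-08 with the block), while Pkm and Ldha had 0.74 and 0.75. Against deep other T cells the 3 lists had 1, 0 and 0 genes that passed with the block.

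Among inhibitors of the cycle, 0 of 8 genes passed without the block, and 4 rose and 1 fell with it. The INK4 family members Cdkn2c and Cdkn2d had log2 fold changes of 1.78 and 1.07 (adjusted p = 0.259 and 0.257), and the pocket protein Rbl1 1.56 (adjusted p = 0.218). Cdkn1b (p27, which holds resting cells out of the cycle) was the gene that fell with the block, at 82.5 and 150 CPM against 160 and 292.

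Genes of naive and quiescent T cells were lower in cycling cells. Of 16 genes, 1 fell without the block and 14 with it, none rose, and the median log2 fold change was -1.02. Il7r, the IL-7 receptor chain that supports resting T cells, was at 97.7 and 98.7 CPM against 412 and 408, and fell by 2.06 on the log2 scale (SE 0.19, adjusted p = 0.0408). The antiproliferative gene Btg1 had 211 and 174 against 566 and 531 (-1.52, SE 0.22, adjusted p = 0.0946, and 3.8e-09 with the block), and the Krüppel-like factor Klf3 53.9 and 51.1 against 101 and 134 (-1.16, adjusted p = 0.169). In these 3 genes the groups did not overlap, and how many of all genes did not overlap was not counted. Homing genes of naive cells had Lef1 at 20.2 and 85.1 against 90.1 and 157, and Ccr7 at 82.5 and 37.4 against 110 and 110. Both passed with the block (adjusted p = 0.000118 and 0.00527) and not without it (adjusted p = 0.522 and 0.480). Against deep other T cells 8 of the 16 genes fell with the block, Il7r by 1.48 and Btg1 by 1.32, and without cells that held other cell types' transcripts 14 of 16 fell with it.

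The Th1 list had a lower share of the UMIs in cycling cells, although more cycling cells had its genes detected. Of 14 genes 0 passed without the block and 6 fell with it, with a median of -0.56. Cxcr6 had 155 and 269 CPM against 504 and 533 (-1.30, SE 0.30, adjusted p = 0.228), and the chemokine Ccl5 652 and 631 against 1699 and 1076 (-1.13, SE 0.32, adjusted p = 0.297). Hopx had 64.0 and 85.1 against 133 and 119 (-0.77, adjusted p = 0.326). These 3 passed with the block (adjusted p = 3.3e-07, 3.0e-07 and 0.0122), Cxcr3 too (-0.56, adjusted p = 0.0218 with it). Tbx21 (-0.55) and Ifng (-0.37) did not (adjusted p = 0.0856 and 0.238). Per cell the list had more UMIs in cycling cells, 23.7 and 18.8 against 16.0 and 8.04. Against deep other T cells 0 of 14 passed with the block, with a median of -0.17.

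Treg genes had a median of -0.43, with 0 of 18 past the threshold without the block and 3 lower with it. Foxp3 had 28.6 and 57.9 CPM against 45.6 and 127 (-0.97, SE 0.59, adjusted p = 0.564, and 0.00376 with the block), and the groups overlapped. The costimulatory receptor Icos had 167 and 226 against 366 and 261 (-0.69, adjusted p = 0.431) and the enkephalin gene Penk 8.42 and 25.5 against 32.4 and 37.1 (-1.04, adjusted p = 0.469), and both passed with the block (adjusted p = 0.0147 and 0.0433). Tigit had -0.60 (adjusted p = 0.0501 with the block), Il2ra -0.51 and Ikzf2 -0.29. Without cells that held other cell types' transcripts 5 of 18 fell with the block and 1 rose. Foxp3 (-1.02), Il2ra (-0.91), Icos (-0.94), Tigit (-0.85) and Penk (-1.37) fell, and the growth factor Areg rose (0.82, adjusted p = 0.0302 with the block). The Areg level of these cycling cells differed widely between replicates. It was at 215 and 40.0 CPM in those with a Foxp3 UMI, and at 423 and 2.41 in those without one. Against deep other T cells 2 of 17 fell with the block, and Foxp3 had -0.98 (adjusted p = 0.0677).

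Across all genes tested, 8.64% rose and 6.28% fell with the block. The lists below are short, and their counts were not tested against these shares. In the remaining lists 0 genes passed without the block. Of 11 natural killer receptor and iNKT genes 2 fell with it, Klrb1c (NK1.1; 1.68 and 6.81 CPM against 14.4 and 39.3, -2.63) and the chemokine Xcl1 (-0.65), while Zbtb16 (0.33) did not pass, nor Fcer1g, at 133 and 20.4 against 43.5 and 33.9. Of 6 cytotoxic genes Gzma (granzyme A) rose with the block, at 67.4 and 22.1 against 10.1 and 15.2 (1.85, SE 0.60, adjusted p = 0.334 without it), and Fasl fell (-1.35). Prf1, the pore-forming perforin, had -1.85 (adjusted p = 0.353). Of 13 activation genes Il2 (-1.30), Cd69 (-0.75) and Cd40lg (-0.73) fell with the block. Of 14 interferon-stimulated genes 3 fell with it, among them Ifi47 (-0.50), while Usp18 (-0.65) did not pass. Of 10 follicular helper genes 3 fell with it, among them Tbc1d4 (-1.01) and Slamf6 (-0.60), while Maf (-0.59) did not. Of 3 T helper 2 genes Il4 (-1.86) and Gata3 (-0.78) fell with it, and Ccr4 (-0.03) did not. The T helper 2 list as a whole, with genes too sparse to test, was at 79.2 and 221 CPM against 149 and 156. In replicate 2 it held 56 UMIs of Il13, found in 2.06% of the cycling cells (95.3 CPM against 1.72). Of 6 T helper 17 genes Il17a passed with the block (adjusted p = 0.0405), on 26 UMIs in 4.44% of the cycling cells of replicate 1 and 0 in replicate 2. Without the cells that held other cell types' transcripts its log2 fold change was -1.44 and it did not pass (adjusted p = 0.415). The T helper 17 genes Rora (-0.57) and Ccr6 (-0.75) did not pass. Cd4 had 131 and 138 against 194 and 221 (-0.62, adjusted p = 0.297, and 0.0182 with the block).

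Besides Il7r, the genes called lower were Igkv1-117 and Trbv26, the latter named after its values were seen. Igkv1-117, an immunoglobulin kappa variable gene of B cells, had 5818 and 5506 UMIs in other T cells against 1 and 0 in cycling cells, but its UMIs lay in 2.95% and 0.306% of the other T cells. It was not tested once the cells with other cell types' transcripts were left out. Trbv26, a receptor beta variable gene, had 2 and 4 UMIs in cycling cells against 567 and 585 (-3.88, SE 0.40, adjusted p = 0.0469). Its UMIs lay in 2.22% and 4.12% of cycling cells and in 6.77% and 6.07% of other T cells. The call thus rests on few cells, and use of this segment was not separated from its level.

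**Figure D4:**
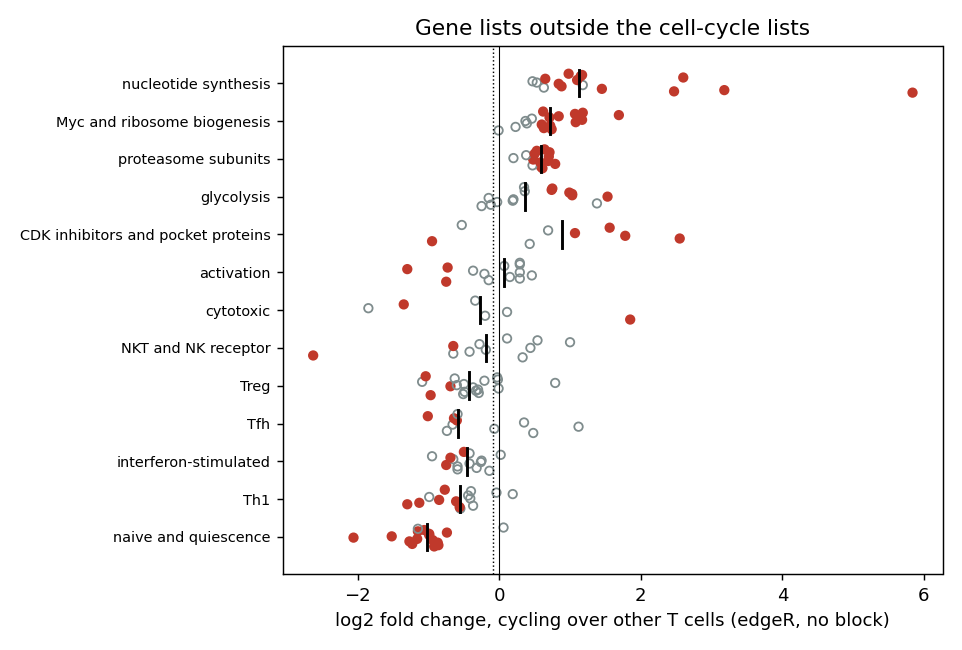
Log2 fold change of cycling over other T cells (horizontal axis, edgeR without the block) for each tested gene of 13 lists. Filled points passed an adjusted p of 0.05 with the replicate block, open points did not, thick bars are list medians, and the dotted line is the median of all genes tested (-0.09). Nucleotide synthesis lies farthest to the right (median 1.13), and naive and quiescence genes farthest to the left (median -1.02).

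Receptor sequences show which cycling cells shared a beta chain. A clonotype was the set of cells of 1 replicate with the same TRB V segment, J segment and CDR3 nucleotides, among cells with exactly 1 productive TRB chain. CDR3 is the loop that meets the antigen, and at the joins of its segments bases are added or trimmed at random during recombination. Of cycling cells, 8 of 32 in replicate 1 (11.5 to 43.4%) and 26 of 71 in replicate 2 (36.6%, 25.5 to 48.9) shared a clonotype with at least 1 other T cell. Of other T cells 20.1% (18.0 to 22.3) and 15.3% (13.9 to 16.7) did. The difference was 13.1 ± 11.6 percentage points (SD, n = 2), 4.90 in replicate 1 and 21.4 in replicate 2. The intervals treat cells as independent, which clonotype mates are not, so the difference cannot be judged by them. A clonotype mate that was itself cycling was found for 9.38% and 21.1% (12.3 to 32.4) of cycling cells (3 and 15 cells), against 2.72% (1.93 to 3.71) and 1.14% (0.764 to 1.63) of other T cells. A mate outside the cycle was found for 8 of 32 and 19 of 71 cycling cells, against 279 of 1398 and 380 of 2548 other T cells. No test was run on these shares.

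**Figure D5:**
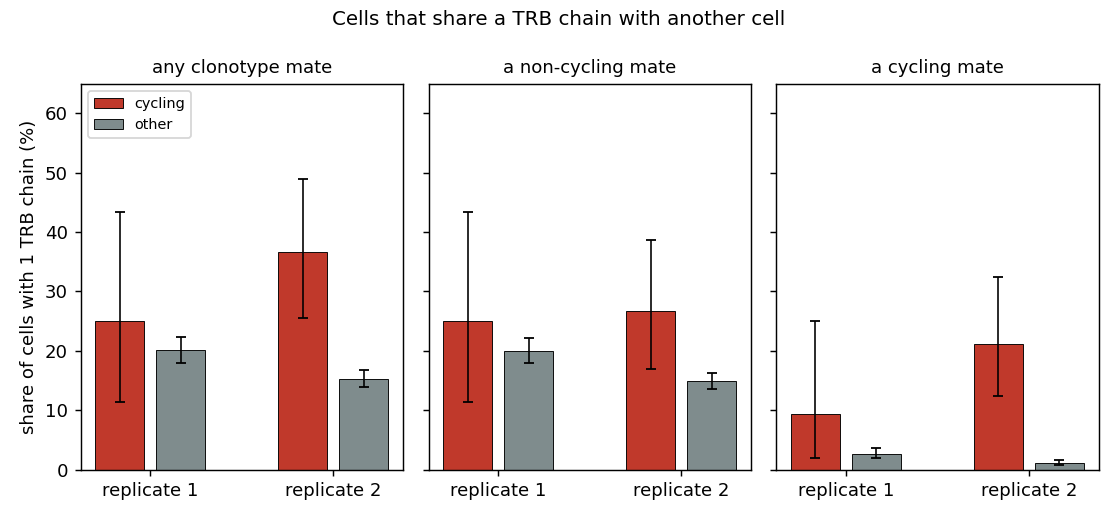
Share of cells with 1 TRB chain (%) that had any clonotype mate (left), a mate outside the cycle (middle) and a cycling mate (right), for cycling (red) and other (grey) T cells of each replicate, with exact 95% intervals. In the right panel the red bars stand at 9.38% and 21.1% and the grey bars at 2.72% and 1.14%.

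The cycling cells of replicate 1 fell into 30 clonotypes and those of replicate 2 into 63. Of these, 24 and 45 consisted of 1 cell. A single clonotype in replicate 1 and 7 in replicate 2 held 2 or more cycling cells, 3 and 15 cells in all, and in 3 of those in replicate 2 every member was cycling. Barcodes of cycling mates differed at 10 or more bases. Whether 1 cell was captured under 2 different barcodes was not tested. The TRB CDR3 sequences of all 8 are shown because they carry the clonal result. Capitals mark bases that match neither the germline V nor the germline J segment of the GENCODE M21 annotation (GRCm38). Germline D segments were not marked, so capitals can include their bases and are not all random additions.

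TRBV19 TRBJ1-1, replicate 1, 3 of 6 cells cycling: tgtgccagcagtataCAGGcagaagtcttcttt
TRBV31 TRBJ1-4, replicate 2, 3 of 3 cells cycling: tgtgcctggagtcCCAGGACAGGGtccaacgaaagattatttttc
TRBV19 TRBJ1-1, replicate 2, 2 of 9 cells cycling: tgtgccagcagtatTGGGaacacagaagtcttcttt
TRBV1 TRBJ2-3, replicate 2, 2 of 6 cells cycling: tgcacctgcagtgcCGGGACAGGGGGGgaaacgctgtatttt
TRBV14 TRBJ1-4, replicate 2, 2 of 3 cells cycling: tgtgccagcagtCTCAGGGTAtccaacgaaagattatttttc
TRBV29 TRBJ2-7, replicate 2, 2 of 3 cells cycling: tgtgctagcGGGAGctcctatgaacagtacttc
TRBV12-2 or TRBV13-2 TRBJ2-7, replicate 2, 2 of 2 cells cycling: tgtgccagcggtgaAAGGgaacagtacttc
TRBV16 TRBJ2-4, replicate 2, 2 of 2 cells cycling: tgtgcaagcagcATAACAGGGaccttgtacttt

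The clonotype of replicate 1 joined Trbv19 (chr6:41178375-41179048) to Trbj1-1 (chr6:41533864-41533911). All 3 of its cycling cells and its 3 other cells carried the same alpha chain, TRAV6-6 with TRAJ30, all 6 met the Th1 criterion, and none had a Foxp3 UMI. Replicate 2 had another TRBV19 TRBJ1-1 clonotype with a different CDR3, in which 2 of 9 cells were cycling and the 7 cells with a known alpha chain shared TRAV10 with TRAJ40. The 3 cells of the TRBV31 TRBJ1-4 clonotype were all cycling and shared a TRAV13-1 TRAJ50 chain. None of them had a Foxp3 UMI or met the Th1 criterion. Both cells of the TRBV16 TRBJ2-4 clonotype shared TRAV16N with TRAJ38. The TRBV1 TRBJ2-3 clonotype was different, since its 4 cells with a known alpha chain carried 4 different ones, so the same beta chain was there paired with unrelated alpha chains. In the remaining 3, with TRBV14, TRBV29 and TRBV12-2 or TRBV13-2, both cycling cells carried the invariant alpha chain.

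The invariant alpha chain joins Trav11 (chr14:53519303-53519859, forward strand) to Traj18 (chr14:54200777-54200842, forward strand). Cycling cells carried 3 versions of its CDR3 in replicate 1 and 4 in replicate 2, each of 45 bases, that differ at 1 base (position 12, in capitals) and translate to 1 protein sequence. They are shown because cells with a different base here came from different rearrangements of the same receptor.

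TRAV11 TRAJ18 CDR3, 1 cycling cells in replicate 1 and 3 in replicate 2: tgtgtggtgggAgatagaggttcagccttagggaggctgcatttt
TRAV11 TRAJ18 CDR3, 1 cycling cells in replicate 1 and 8 in replicate 2: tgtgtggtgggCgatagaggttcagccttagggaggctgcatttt
TRAV11 TRAJ18 CDR3, 1 cycling cells in replicate 1 and 10 in replicate 2: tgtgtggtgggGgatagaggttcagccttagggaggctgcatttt
TRAV11 TRAJ18 CDR3, 0 cycling cells in replicate 1 and 1 in replicate 2: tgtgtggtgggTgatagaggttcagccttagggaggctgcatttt

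The versions with C and G were the most frequent in cycling cells of replicate 2 (8 and 10 cells) and also in its other T cells (172 and 147 cells), followed by A (3 against 81) and T (1 against 61). Among iNKT cells with 1 TRB chain, TRBV13, TRBV29 or TRBV1, the beta families that pair with this chain in mice, were used by 11, 5 and 1 of 20 cycling cells in replicate 2, against 286, 49 and 33 of 402 outside the cycle. The TRBV13 counts include calls of TRBV12-2 or TRBV13-2, which were 9 of the 11 and 195 of the 286. Of these 20 cells 9 had a clonotype mate (exact 95% interval 23.1 to 68.5%), against 51 of 402 iNKT cells outside the cycle (12.7%, 9.59 to 16.3). In replicate 1 no iNKT cell had one, 0 of 2 cycling and 0 of 113 other cells. Cycling cells with another alpha chain had a mate in 8 of 30 (26.7%, 12.3 to 45.9) and 15 of 42 (35.7%, 21.6 to 52.0), against 21.9% and 15.1% of other T cells with such a chain. Of cycling cells with a Foxp3 UMI, 0 of 6 and 3 of 11 had a mate, and of those with the Th1 genes 7 of 22 and 13 of 41. The differences between states were not tested.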

How the data were processed

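Meningeal CD4+ T cells were measured in 2 replicates as single-cell RNA, hashtag antibody and T cell receptor libraries. The deposited matrices hold UMI counts per gene and barcode, written by Cell Ranger 4.0.0 (replicate 1) and 6.0.0 (replicate 2) per the file headers. The submitters' processing notes name Cell Ranger 6.1.0, Seurat and mm10. The labels name a 3′ kit and the series' design a 5′ kit with receptor sequencing, and the one used is not settled here. The label of replicate 1 pairs the name Hash7 with a sequence that the hashtag table lists for Hash10, and the name was followed.

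From these, cells were selected as described above, with no doublet caller, and the raw counts were summed per replicate over cycling and over other T cells. The 4 sums were tested in edgeR 4.0.16 (R 4.3.3; TMM, filterByExpr, quasi-likelihood, Benjamini-Hochberg adjustment, adjusted p under 0.05), with DESeq2 1.42.0 as an alternative. On simulated data for this comparison the fit recovered 35 of 100 genes changed 2-fold and 81 of 100 changed 4-fold without the block (11052 genes, 3 false calls), and 38 and 87 with it (11136 genes, 6 false calls). The simulation used a fixed dispersion and changed only well counted genes. Without the block it held no difference between replicates, unlike these data, so these numbers do not measure recovery here. CPM values are counts scaled to each sum's total. Both sums of a replicate share the library and the mice, so the replicate number pairs them: their deviations from the group means correlated at Pearson's r = 0.618 and Spearman's rho = 0.527 across 11511 genes, which are not independent replicates. A fit with this block stands beside the one without it. The labels do not say whether the mice of a replicate were pooled, and p-values measure the spread between these sums, with dispersion shared across genes. With the block, the 4 sums leave little residual freedom for a single gene. Its small p-values therefore rest largely on that sharing and do not measure how well a single gene was replicated. Shares have exact Clopper-Pearson 95% intervals (scipy 1.17.1).

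Genes were named by rule: the 10 highest and 10 lowest called genes outside the cell-cycle lists with a mean log2 level of at least 5 (only 2 passed as lower), and the 3 smallest p-values of each list, with state genes added. The members and the lists were chosen with earlier results of these data known. Single values of some genes on these lists are not reported here.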

Additional observations from a re-analysis of the deposited data

How the results depend on the processing

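The number of genes called by edgeR, 100 without the block, moved most with the pairing: with the replicate block it was 1718. With the block and a second change it was 447 against deep other T cells, 332 after thinning to 1000 UMIs, 1144 and 1647 at hashtag margins of 20 and 5, 1537 with exactly 1 TRB chain and 1749 without cells holding other cell types' transcripts. Without the block it was 213 at either margin, 56 and 51 when at least 2 or at least 4 of the 7 genes were required, 190 with exactly 1 TRB chain, 206 without cells holding other cell types' transcripts, 282 without a filter on low counts and 0 against deep other T cells (665 at an unadjusted p under 0.05). DESeq2 called 506. Thinning gave 97 and library sizes without TMM factors 91. Of 78 named genes, 44 gained a call with the block and 0 lost one. Against deep other T cells without the block 0 of 74 named genes passed, so all 19 with a call lost it. There Stmn1 had 4.71 (5.22 against all) and Il7r -1.48 (-2.06 against all) on the log2 scale. Genes at least 2-fold apart, counted without a test, numbered 355, and 430 to 450 with 1 replicate left out.

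The cycling share of T cells was 2.13% and 2.15% at margins of 5 and 20, 3.78% and 1.82% with at least 2 or 4 genes, 2.47% with exactly 1 TRB chain, 2.03% without cells holding other cell types' transcripts and 0.972% after thinning, where the rule itself had fewer UMIs to read. It was 2.23% to 2.40% with 1 replicate left out. The difference in the Foxp3 share turned to -5.33 points after thinning and -9.81 against deep other T cells (3.46 to 11.2 with 1 replicate left out). It was 3.49 and 5.96 at margins of 5 and 20 (-0.939 in replicate 2 at a margin of 5) and 3.40 without cells holding other cell types' transcripts. The Th1 difference was 25.6 and 28.7 at margins of 5 and 20, -6.48 after thinning and 4.20 against deep cells (18.2 to 24.3 with 1 replicate left out). The TRAV11-TRAJ18 difference was -0.445 against deep cells, and -2.10 to 9.88 with 1 replicate left out. In replicate 1 it was 0.0243 and 0.625 at margins of 5 and 20 and -0.218 without cells holding other cell types' transcripts. The sign in replicate 1 was therefore not firm. In replicate 2 these values were 10.5, 11.2 and 10.5. The difference in expanded clonotypes lay between 11.3 and 17.2 under the other settings and at 4.90 and 21.4 with 1 replicate left out. With at least 4 of the 7 genes it was -0.214 in replicate 1 and 22.8 in replicate 2. Beyond these constructions the cause was not tested. Alternatives with the block and a second change, those without cells holding other cell types' transcripts and the depth match of the shares were chosen after seeing the data.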
